A study of Mus musculus with 27 samples.

Results

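Nuclear poly(A) RNA from primary cultures of mouse cortex was compared after 1 h of bicuculline and without stimulation, with triptolide present for 3 h in both. The comparison rests on 6 libraries of the 27 in the series, 3 per group, paired by replicate number, and on the 13851 of 59489 gene models that reached 1 FPKM in at least 3 of the 6. FPKM, fragments scaled to transcript length and library size, is a level per length. Of these entries 11635 carried a gene symbol and 2216 did not. The series has 9 groups of 3 libraries, and the cytosolic and whole-cell triptolide groups are used here only to show where the nuclear response differed. The first group was given bicuculline at 20 µM for 1 h together with triptolide at 1 µM, and the second received triptolide alone. Cells of wild-type mice were taken on embryonic day 16.5 and kept for 14 days. The labels name no sorting or purification of neurons. The labels do not say that the replicates came from separate animals or cultures, so p-values measure only the spread between these libraries, which may be partly technical.

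Bicuculline blocks GABA-A receptors, the main inhibitory receptors of the cortex, and so makes cultured neurons fire in bursts. Calcium entry then switches on immediate early genes, which are transcribed without new protein synthesis. Triptolide binds a subunit of the general transcription factor TFIIH and blocks initiation by RNA polymerase II, so RNA made before the block dominates what can be measured. Polyadenylated RNA in the nucleus includes mRNA awaiting export, long noncoding RNA and transcripts that keep introns. The series' title places its question in intron retention. The deposited values are levels of whole genes, so retained introns were not analysed here.

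The fraction labels were checked with long noncoding RNAs known to stay in the nucleus. Meg3 lay at 608 to 1265 FPKM in bicuculline nuclei and 768 to 826 FPKM in unstimulated nuclei, against 75.4 to 115 FPKM and 76.6 to 83.3 FPKM in the cytosol. Miat and Snhg11 had the same order of fractions. Summed excitatory neuron markers came to 827 to 1109 FPKM in bicuculline nuclei and 855 to 1011 FPKM in unstimulated nuclei, and summed astrocyte markers to 1799 to 1947 FPKM and 1990.1 to 2276 FPKM, so both cell types were present. Microglia markers summed to 10.7 to 25.2 FPKM and 10.7 to 25.0 FPKM. Estimated depth was 67586003 to 81070970 fragments per nuclear library, at which 10 fragments on a transcript of 2 kb make 0.0617 to 0.0740 FPKM. Mitochondrially encoded RNAs took 9.92, 9.59 and 11.8% of all FPKM in bicuculline libraries 1, 2 and 3, and 11.7, 10.4 and 12.5% in the unstimulated libraries. The share was lower with bicuculline in 3 of 3 pairs. Calls after rescaling without these RNAs are given below, and the cause of the lower share was not tested.

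In nuclear RNA, bicuculline changed 47 of 13851 entries (0.339%), 19 higher (0.137%) and 28 lower (0.202%), by limma with the replicate pairs as blocks and a Benjamini-Hochberg adjusted p under 0.05. The higher entries included the immediate early genes Fosb, Fos and Arc, and also Reln, Hapln1, Ndnf, Rtn4r and Epha4. The lower entries were mostly short or intronic gene models without a symbol, and the 4 protein-coding genes with a symbol among them were Whamm, Rock1, Tmsb10 and Gng5. At an unadjusted p under 0.05 there were 1072 higher (7.74%) and 1160 lower entries (8.37%), and the median log2 change of all tested entries was -0.02. The fit without pairing called 1 entry, so the calls rest on changes within pairs. With median-ratio scaling the calls were 385 higher and 252 lower (60.4% higher, against 40.4% here), with all 18 triptolide libraries in the fit 469 and 360, and after rescaling without mitochondrially encoded RNAs 9 and 22 (29.0% higher). All 47 entries kept their direction in each of these 4 fits.

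**Figure D1:**
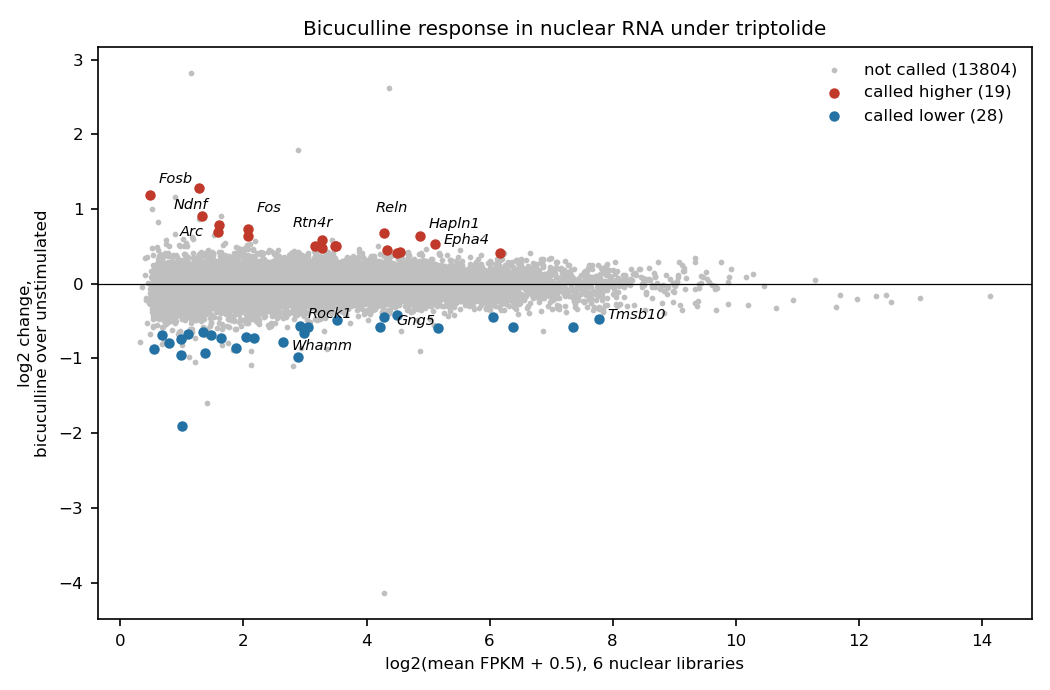
Log2 change in nuclear RNA, bicuculline over unstimulated, against the log2 of the mean level (FPKM + 0.5) over 6 libraries. Each point is 1 of 13851 entries, with the 19 called higher in red and the 28 called lower in blue. Fosb, at a log2 change of 1.18, is the highest red point with a symbol.

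The change differed between pairs. Across the 13851 entries the log2 changes of pairs 1 and 3 had a Pearson r of 0.516, against 0.0903 for pairs 1 and 2 and 0.0651 for pairs 2 and 3. These are correlations across genes of whole libraries, given as a description. Estimated depth was 80362694, 67586003 and 81070970 fragments in bicuculline libraries 1, 2 and 3, against 67740167, 72049906 and 70559916 in the unstimulated ones. It was thus higher with bicuculline in pairs 1 and 3 and lower in pair 2, and its part in the changes was not tested. Meg3, a long noncoding RNA of the Dlk1-Dio3 locus, was at 608, 1265 and 623 FPKM in bicuculline nuclei and 798, 826 and 768 FPKM in unstimulated nuclei. Bicuculline library 2 was the highest of the 6 and bicuculline libraries 1 and 3 the lowest. The same held for Miat (107, 173 and 113 FPKM, against 134, 140 and 144 FPKM) and Snhg11 (109, 173 and 109 FPKM, against 153, 129 and 144 FPKM). In the cytosol Miat and Snhg11 were higher with bicuculline in each pair, and Meg3 in pairs 1 and 2 only. The nuclear marker RNAs thus varied between the compared libraries, and their part in the other results was not tested. Clk1, a kinase of SR splicing factors, had 17.8, 25.7 and 17.4 FPKM in bicuculline nuclei, against 22.2, 21.2 and 27.4 FPKM in unstimulated nuclei, and its relative Clk4 had 17.5, 23.2 and 17.1 FPKM, against 22.2, 20.6 and 24.9 FPKM. Both were lower with bicuculline in pairs 1 and 3 and higher in pair 2. Over all pairs neither passed the test (Clk1 -0.23, SE 0.17, adjusted p = 0.568; Clk4 -0.23, SE 0.12, adjusted p = 0.399), nor did Meg3 (-0.03, SE 0.22, adjusted p = 0.965). Without replicate 2 the log2 changes were -0.48 for Clk1 (limma adjusted p = 0.0136), -0.44 for Clk4 (adjusted p = 0.0139) and -0.35 for Meg3 (adjusted p = 0.0298), and the count over all entries was 315 higher and 675 lower. Without replicate 1 it was 11 and 15, and without replicate 3 it was 68 and 129.

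**Figure D2:**
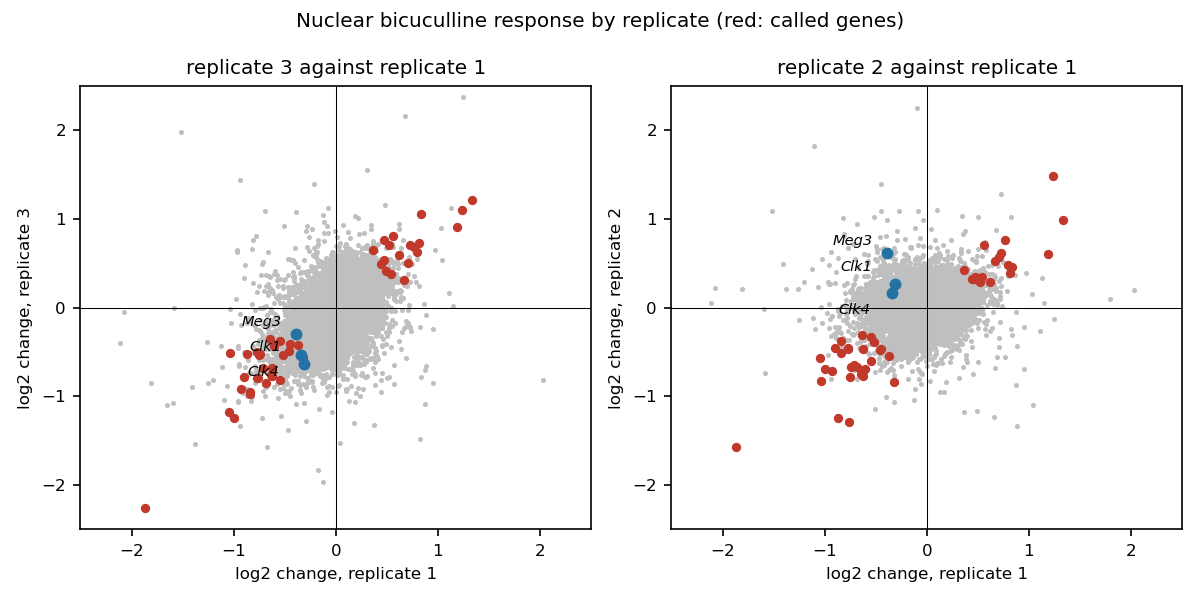
Log2 change in nuclear RNA, bicuculline over unstimulated, in replicate 3 (left) and replicate 2 (right) against that in replicate 1. Grey points are tested entries and red points the 47 called ones, and 8 entries lie outside the axes of each panel. Meg3, Clk1 and Clk4 (blue) lie below 0 in replicates 1 and 3 and above 0 in replicate 2.

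Promoter sequence is printed for the Fos family genes, which were higher in nucleus and cytosol, and for Reln and Hapln1, which were higher in the nucleus, since triptolide acts at these start sites. The stretches run from 250 bases before to 50 after the RefSeq start on GRCm38.p6, 5′ to 3′ on the gene's strand, and TGACG or its reverse complement, the core of the cAMP response element, is in capitals. Fos lies at chr12:85473640-85473939 (plus strand), Fosb at chr7:19309996-19310295 (minus), Reln at chr5:22344656-22344955 (minus) and Hapln1 at chr13:89540386-89540685 (plus). The Hapln1 stretch lies inside the measured gene model, which begins at 89539796, so it does not cover the start of that model. The table used has no entry for Arc or Ndnf.
Fos: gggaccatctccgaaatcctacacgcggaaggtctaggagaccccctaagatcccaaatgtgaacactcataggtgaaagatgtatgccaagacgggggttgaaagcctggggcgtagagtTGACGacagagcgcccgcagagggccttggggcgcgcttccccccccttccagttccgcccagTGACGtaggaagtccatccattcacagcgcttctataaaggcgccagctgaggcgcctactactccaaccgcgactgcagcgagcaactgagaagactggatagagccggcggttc
Fosb: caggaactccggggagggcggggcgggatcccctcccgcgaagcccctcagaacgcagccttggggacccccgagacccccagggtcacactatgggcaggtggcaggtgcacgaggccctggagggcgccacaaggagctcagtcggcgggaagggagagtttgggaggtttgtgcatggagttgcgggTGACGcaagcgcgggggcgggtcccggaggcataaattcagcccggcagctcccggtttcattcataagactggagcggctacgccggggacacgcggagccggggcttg
Reln: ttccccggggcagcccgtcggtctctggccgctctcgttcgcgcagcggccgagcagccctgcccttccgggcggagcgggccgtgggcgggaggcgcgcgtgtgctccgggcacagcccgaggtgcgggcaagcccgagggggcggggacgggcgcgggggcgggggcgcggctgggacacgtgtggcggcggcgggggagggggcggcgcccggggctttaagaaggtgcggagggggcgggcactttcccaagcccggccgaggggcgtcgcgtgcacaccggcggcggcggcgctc
Hapln1: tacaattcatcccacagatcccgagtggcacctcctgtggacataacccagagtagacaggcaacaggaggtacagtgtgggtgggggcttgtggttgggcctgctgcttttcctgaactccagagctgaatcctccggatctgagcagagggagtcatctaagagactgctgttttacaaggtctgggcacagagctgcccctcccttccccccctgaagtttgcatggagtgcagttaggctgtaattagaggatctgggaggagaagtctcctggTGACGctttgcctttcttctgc
Both strands were searched. TGACG occurred 2 times for Fos, at 129 and 66 bases before the start, 1 time for Fosb, 60 bases before it, 0 times for Reln, and 1 time for Hapln1, 28 bases after it. Over 32851 mouse promoters of the same length 20.8% held this core, 1.79% the full element TGACGTCA, which contains it, and 1.63% a CArG box, the site of serum response factor. Neither of these longer motifs was found in the 4 stretches. Sequence further upstream was not searched, so sites there would be missed.

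Immediate early genes had the highest median of the 27 lists. Of 27 listed members with an entry, 16 were tested, 3 were called higher (Fosb, Fos, Arc) and 0 lower. At an unadjusted p under 0.05, 10 were higher (7.74% of all entries were). All 16 log2 changes were positive (6270 of all 13851 were), with a median of 0.35 against -0.02 for all tested entries. Fosb (chromosome 7, 19302696 to 19310045), which joins Jun proteins in the AP-1 complex, had 1.57, 1.04 and 1.72 FPKM in bicuculline nuclei, against 0.320, 0.277 and 0.455 FPKM in unstimulated nuclei. The groups did not overlap, and Fosb passed the filter through its bicuculline libraries alone, so some difference in that direction was built in. Its log2 change was 1.18 (SE 0.14, limma adjusted p = 0.00334), 2.27-fold on the scale of FPKM + 0.5 that holds for all fold and log2 changes here.

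Fos (chromosome 12, 85473889 to 85477273), Fosb's close relative in AP-1, had 5.27, 3.70 and 5.30 FPKM in bicuculline nuclei, against 2.90, 1.98 and 3.12 FPKM in unstimulated nuclei. All bicuculline libraries lay above all unstimulated ones, by a log2 change of 0.73 (SE 0.11, adjusted p = 0.0118). Arc (chromosome 15, 74669081 to 74672572), whose protein forms capsids and regulates AMPA receptor uptake at synapses, had 3.08, 1.92 and 4.61 FPKM in bicuculline nuclei, against 1.93, 0.980 and 2.41 FPKM in unstimulated nuclei. The groups overlapped although each pair moved up, and the log2 change was 0.69 (SE 0.12, adjusted p = 0.0291). The calls of Fos and Arc were lost without replicate 1 (adjusted p = 0.0812 and 0.0906) at log2 changes of 0.72 and 0.76, while that of Fosb held without each replicate in turn. Cyr61, a secreted matrix-associated protein induced early by growth stimuli, was also called higher, at 2.3996, 2.20 and 3.63 FPKM with bicuculline and 0.772, 1.27 and 1.70 FPKM without (0.90, SE 0.14, adjusted p = 0.0118). Its call was lost without replicate 1 (adjusted p = 0.097), and it was named after its values were seen, as its mean lay under 2 FPKM.

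Other early genes had smaller values that did not pass the test. Egr1, a zinc finger transcription factor, was at 6.14, 3.88 and 5.24 FPKM in bicuculline nuclei and 4.13, 2.77 and 4.47 FPKM in unstimulated nuclei (0.38, SE 0.11, adjusted p = 0.119). The groups overlapped, with a higher value in each bicuculline library than in its pair. The orphan nuclear receptor gene Nr4a1 was at 5.27, 4.25 and 6.10 FPKM, against 5.27, 3.40 and 5.70 FPKM (0.13, SE 0.10, adjusted p = 0.583). Npas4, a transcription factor induced by calcium entry into neurons, was at 2.85, 1.73 and 3.02 FPKM, against 2.66, 1.67 and 2.56 FPKM (0.11, SE 0.12, adjusted p = 0.689). Library 2 was lowest for Npas4 in both groups, and the groups overlapped.

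Delayed activity genes, which follow the early ones, had 0 of 19 tested members called, with a median of 0.21. At an unadjusted p under 0.05, 10 were higher and 0 lower (7.74% and 8.37% of all entries were). The largest change was that of the polo-like kinase gene Plk2, at 4.97, 3.50 and 4.64 FPKM with bicuculline and 3.26, 2.18 and 3.34 FPKM without (0.51, SE 0.11, adjusted p = 0.0647). Bdnf, the neurotrophin gene, was at 4.605, 3.02 and 4.34 FPKM, against 2.99, 2.75 and 3.64 FPKM (0.30, SE 0.12, adjusted p = 0.25). Genes of ERK feedback, which dampen the kinase ERK, had 0 of 16 called, 4 higher and 1 lower at an unadjusted p under 0.05 and a median of 0.06, with the phosphatase gene Dusp8 at 0.42 (adjusted p = 0.0803).

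**Figure D3:**
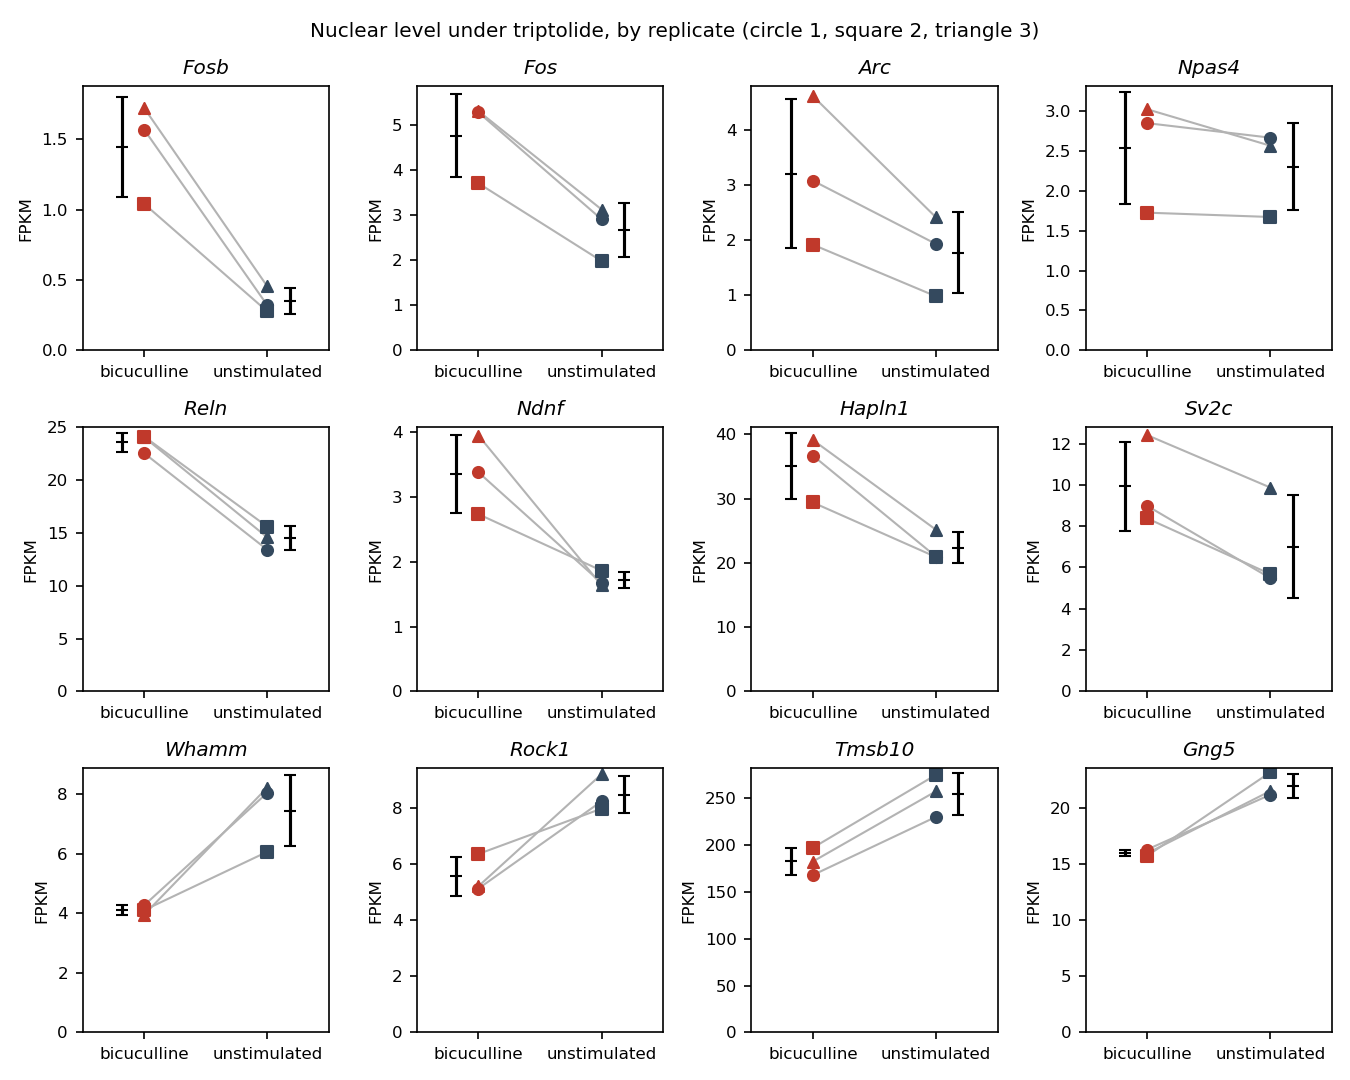
Nuclear FPKM of 12 genes in bicuculline (left, red) and unstimulated (right, dark) libraries, with grey lines joining a replicate pair and black bars for mean and SD of 3. Fos, Reln, Ndnf and Hapln1 are higher and Whamm, Rock1, Tmsb10 and Gng5 lower in every bicuculline library than in any unstimulated one, while the Npas4 groups overlap.

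Of the called genes that encode secreted or matrix proteins, Reln (chromosome 5, 21884454 to 22344706), the secreted glycoprotein reelin of Cajal-Retzius cells and interneurons, had 22.5, 24.1 and 24.1 FPKM in bicuculline nuclei, against 13.4, 15.6 and 14.6 FPKM in unstimulated nuclei. The groups were far apart for their spread, with a log2 change of 0.68 (SE 0.08, adjusted p = 0.00334). Hapln1 (chromosome 13, 89539796 to 89611832), the link protein that ties hyaluronan to proteoglycans in perineuronal nets, had 36.7, 29.4 and 39.1 FPKM, against 21.0, 20.9 and 25.2 FPKM, with no overlap (0.63, SE 0.08, adjusted p = 0.00693). Ndnf (chromosome 6, 65671588 to 65706930), a secreted factor that marks interneurons of layer 1, had 3.38, 2.73 and 3.95 FPKM, against 1.67, 1.86 and 1.63 FPKM, also with no overlap (0.78, SE 0.13, adjusted p = 0.0291). An entry without a symbol that overlaps an exon of Ndnf (chromosome 6, 65709793 to 65712321), GSMG0032008, was called higher too, at 0.64, though not without replicate 1 (adjusted p = 0.257). The calls of Reln and Hapln1 held without each replicate in turn, and that of Ndnf was lost without replicate 1 (adjusted p = 0.105). Genes on the opposite strand overlap Reln and Hapln1, and the strand setting of the counting is not given in the sources used here.

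Among surface receptors, Rtn4r (chromosome 16, 18127649 to 18152406), the Nogo receptor of myelin inhibitors of axon growth, had 12.4, 10.6 and 10.4 FPKM in bicuculline nuclei, against 7.45, 6.996 and 7.21 FPKM in unstimulated nuclei (0.59, SE 0.09, adjusted p = 0.0118). Epha4 (chromosome 1, 77367185 to 77515088), a receptor tyrosine kinase for ephrins, had 33.2, 40.6 and 47.2 FPKM, against 23.8, 32.0 and 27.5 FPKM (0.53, SE 0.09, adjusted p = 0.0334). The groups did not overlap for Rtn4r and lay close for Epha4, where the lowest bicuculline library stood just above the highest unstimulated one. Npy1r, a receptor of neuropeptide Y, had 15.2, 11.0 and 12.3 FPKM, against 10.5, 8.89 and 7.35 FPKM (0.51, SE 0.10, adjusted p = 0.0459). Lrp12, a member of the LDL receptor family, had 13.5, 11.5 and 12.9 FPKM, against 8.63, 9.28 and 8.37 FPKM (0.50, SE 0.09, adjusted p = 0.0429). Neither gene's groups overlapped, and the calls of Rtn4r, Npy1r and Lrp12 were lost without replicate 1 (adjusted p = 0.105, 0.149 and 0.21).

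The synaptic vesicle protein gene Sv2c (chromosome 13, 95959443 to 96132577) had 8.98, 8.37 and 12.4 FPKM in bicuculline nuclei, against 5.48, 5.68 and 9.87 FPKM in unstimulated nuclei. Library 3 was highest in both groups, which therefore overlapped, and the log2 change within pairs was 0.50 (SE 0.10, adjusted p = 0.0459). Gad2, which makes GABA from glutamate, had 27.6, 23.0 and 27.9 FPKM, against 18.8, 18.01 and 21.3 FPKM, with no overlap (0.42, SE 0.08, adjusted p = 0.0459). Fbxw7, the substrate receptor of an SCF ubiquitin ligase, had 22.6, 19.1 and 27.1 FPKM, against 16.1, 15.1 and 18.5 FPKM, with no overlap (0.45, SE 0.08, adjusted p = 0.0374). Their calls were lost without replicate 1. Coro1a, an actin-binding protein named after its values were seen, was also called higher (0.41, adjusted p = 0.0459), though not without replicate 1 (adjusted p = 0.222).

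Neuronal gene lists had positive medians, with few members called. Of synaptic adhesion genes, such as neurexins and their partners, 0 of 42 were called, 20 were higher and 0 lower at an unadjusted p under 0.05, 39 had positive log2 changes and the median was 0.21. The largest value was that of Lrrtm1, a postsynaptic partner of neurexins, at 0.42 (adjusted p = 0.0519). Of glutamatergic synapse genes 0 of 44 were called and 13 were higher and 0 lower at an unadjusted p under 0.05 (median 0.12), led in size by the AMPA receptor subunit gene Gria3 at 0.39 (adjusted p = 0.0694). Of voltage-gated channel genes 0 of 48 were called and 16 were higher and 0 lower at that level (median 0.11), and the potassium channel gene Kcnh7 stood at 0.43 (adjusted p = 0.0803). GABAergic synapse genes had 1 of 29 called higher, Gad2, with 10 higher and 1 lower at an unadjusted p under 0.05 (median 0.13). Synaptic vesicle genes had 1 of 35 called higher, Sv2c, with 10 and 0 (median 0.09), and excitatory neuron markers had 1 of 14 called higher, with 6 and 1 (median 0.15). Over all entries 7.74% were higher and 8.37% lower at that level. Of 14 tested astrocyte markers 0 were called, 6 were lower at an unadjusted p under 0.05, 0 had a positive log2 change and the median was -0.17. S100b had the largest of these at -0.37 (adjusted p = 0.279), and the summed astrocyte levels given above did not overlap between the groups. Over all pairs the astrocyte markers moved opposite to the neuronal lists, with pair medians of -0.21, -0.28 and -0.0048. In pair 3 the astrocyte median was thus near 0, against -0.05 for all entries. The neuronal lists had medians of 0.17 to 0.29 in that pair. The part of the astrocyte markers in the neuronal values was not tested. In such bulk RNA, fewer cells of a type and less RNA per cell cannot be told apart. Median changes of the neuronal lists stayed positive and that of the astrocyte list negative with median-ratio scaling, quantile normalization and rescaling without mitochondrially encoded RNAs.

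**Figure D4:**
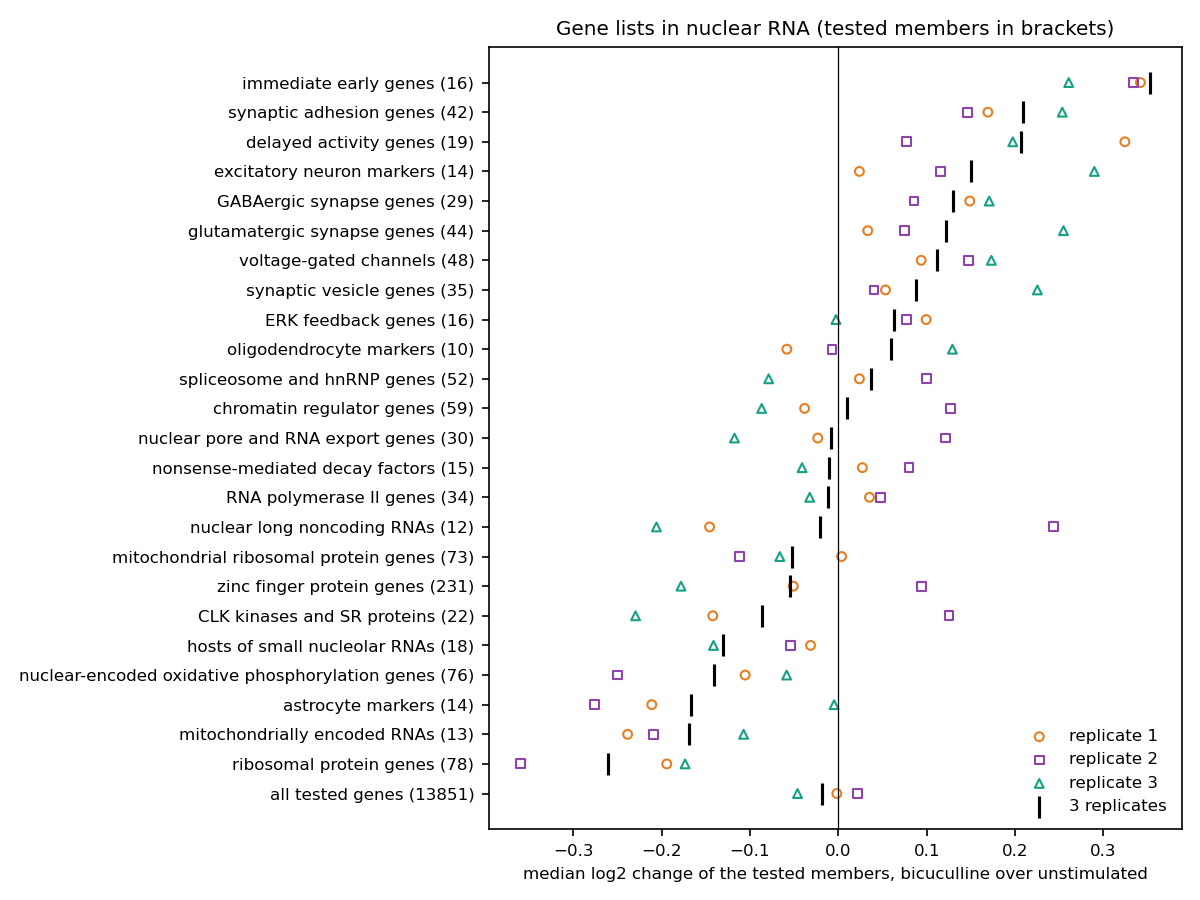
Median log2 change in nuclear RNA, bicuculline over unstimulated, of each gene list with at least 10 tested members, in replicates 1 to 3 (open symbols) and over all 3 (black line). Immediate early genes lie highest at 0.35 and ribosomal protein genes lowest at -0.26, while CLK kinases and SR proteins are among the lists that change sign between replicates.

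Ribosomal protein genes were the list with the lowest median, -0.26. Of 78 tested members 0 were called, but 58 were lower and 0 higher at an unadjusted p under 0.05 (8.37% and 7.74% of all entries were). Of the members 77 had negative log2 changes (7581 of all 13851 entries had). Their summed level was 5714 to 6563 FPKM in bicuculline nuclei and 6933 to 7568 FPKM in unstimulated nuclei, with no overlap. In the cytosol the median was 0.01 and 1 member was lower at that level (2.52% of all entries were), and the difference between nucleus and cytosol had an unadjusted p under 0.05 in 49 members, all smaller in the nucleus (16.1% of all entries were), with 0 called. Rpl29 had the largest single value, -0.45 (adjusted p = 0.114). Reads of these genes can be shared with their many pseudogenes, so their levels are less certain than others. Nuclear-encoded genes of oxidative phosphorylation had 0 of 76 called, 26 lower and 0 higher at an unadjusted p under 0.05 and a median of -0.14, with the complex I subunit gene Ndufa3 at -0.33 (adjusted p = 0.0873). Mitochondrially encoded RNAs had 0 of 13 called, 1 higher and 6 lower at an unadjusted p under 0.05 and a median of -0.17. In the cytosol 4 of 13 were called lower, where 0.447% of all entries were. Quantile normalization gives the highest ranks the same values in every library. Its median of 0.00 for these abundant RNAs therefore cannot show whether they fell. Genes that host small nucleolar RNAs in their introns had 0 of 18 called, 1 higher and 5 lower at an unadjusted p under 0.05. Their median was -0.13, with Snhg17 at -0.52 (adjusted p = 0.0839).

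RNA-processing lists had medians near that of all entries. CLK kinases and SR proteins had 0 of 22 called and a median of -0.09, with pair medians of -0.14, 0.13 and -0.23, so pair 2 again went the other way. So it did for nuclear long noncoding RNAs (pair medians of -0.15, 0.24 and -0.21), nuclear pore and RNA export genes (-0.02, 0.12 and -0.12), zinc finger protein genes (-0.05, 0.09 and -0.18) and chromatin regulator genes (-0.04, 0.13 and -0.09), against pair medians of -0.0017, 0.02 and -0.05 for all entries. Srsf7, an SR splicing factor, had the largest change within this list, at 30.0, 31.4 and 25.5 FPKM in bicuculline nuclei and 38.2, 35.1 and 39.3 FPKM in unstimulated nuclei (-0.37, SE 0.09, adjusted p = 0.0923). Spliceosome and hnRNP genes had 0 of 52 called and a median of 0.04, with the core spliceosome protein gene Prpf8 at 0.24 (adjusted p = 0.157). Nuclear pore and RNA export genes (0 of 30 called, median -0.01, with the export factor gene Thoc1 at -0.39, adjusted p = 0.127), nonsense-mediated decay factors (0 of 15, median -0.01, Smg8 at 0.29), RNA polymerase II genes (0 of 34, median -0.01, Polr2a at 0.26) and nuclear long noncoding RNAs (0 of 12, median -0.02, Pantr1 at -0.26) all had positive medians with median-ratio scaling, as did all tested entries together (0.02 with that scaling, against -0.02 here). Chromatin regulator genes had 0 of 59 called and a median of 0.01 (Kmt2c at -0.29), which became -0.01 after rescaling without mitochondrially encoded RNAs. Zinc finger protein genes had 0 of 231 called and a median of -0.05 (Zfp389 at -0.46), and mitochondrial ribosomal protein genes 0 of 73 and -0.05 (Mrpl44 at 0.38). Among markers of other cells, 0 were called of 10 oligodendrocyte (median 0.06, Sox10 at -0.23), 6 microglia (-0.12, Aif1 at -0.25), 4 vascular and mesenchymal (0.11, Dcn at 0.19) and 9 progenitor markers (-0.14, Ccna2 at -0.30). Cldn5, which marks endothelium, was listed at 0 in all 6 nuclear libraries.

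Among the falls with a symbol, Whamm (chromosome 7, 81571164 to 81596836), an activator of the Arp2/3 complex at membranes, had 4.26, 4.10 and 3.95 FPKM in bicuculline nuclei, against 8.05, 6.06 and 8.22 FPKM in unstimulated nuclei. The groups lay well apart, and the log2 change was -0.77 (SE 0.11, adjusted p = 0.0118), held without each replicate in turn. Rock1 (chromosome 18, 10064401 to 10182046), a kinase of actomyosin contraction, had 5.14, 6.37 and 5.22 FPKM, against 8.26, 7.996 and 9.23 FPKM, with no overlap (-0.57, SE 0.11, adjusted p = 0.0429). Tmsb10, which sequesters actin monomers, had 168, 197 and 183 FPKM, against 230.3, 275 and 258 FPKM, with no overlap (-0.48, SE 0.08, adjusted p = 0.0291). Gng5, a G protein gamma subunit, had 16.3, 15.7 and 15.9 FPKM, against 21.2, 23.2 and 21.5 FPKM, also with no overlap (-0.44, SE 0.08, adjusted p = 0.0363). The calls of Rock1, Tmsb10 and Gng5 were lost without replicate 1 (adjusted p = 0.157, 0.105 and 0.0731). Among short noncoding entries with a symbol, 2 were called lower. Mir6236 was at 115, 151 and 126 FPKM, against 196, 209.6 and 179 FPKM (-0.58, SE 0.09, adjusted p = 0.0118), and the small nucleolar RNA Snora64, named after its values were seen, stood at -0.67 (SE 0.13, adjusted p = 0.0459). Both calls were lost without replicate 1 (adjusted p = 0.097 and 0.282). Libraries selected for poly(A) are not designed to capture mature RNAs of this size class.

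The other 22 lower entries had no symbol. They spanned 23 to 2606 bp, 12 were under 200 bp, 13 lay within the span of a protein-coding gene and 11 overlapped an annotated exon. Of all 28 lower entries 14 were under 200 bp (50.0%), against 0 of 19 higher entries and 6.01% of all tested. GSMG0002765 (chromosome 10, 20264822 to 20266354), inside an intron of Map7, had 0.310, 0.412 and 0.288 FPKM in bicuculline nuclei, against 2.46, 2.22 and 3.28 FPKM in unstimulated nuclei. This was the largest called change of all, a log2 change of -1.90 (SE 0.15, adjusted p = 1.07e-04), while Map7 itself stood at -0.17 (adjusted p = 0.385). It passed the filter through its unstimulated libraries alone, as did 3 other lower entries. GSMG0018786 (chromosome 18, 25481442 to 25483122), which overlaps an exon of the RNA-binding protein gene Celf4, had 4.47, 4.91 and 4.05 FPKM, against 9.41, 8.22 and 10.3 FPKM, with no overlap (-0.98, SE 0.11, adjusted p = 0.00334). Celf4 stood at 0.05 (adjusted p = 0.782). Further examples, like these named after their values were seen, lay within Srsf11 (GSMG0026235, -0.86), Ptbp2 (GSMG0067697, -0.73), Ncoa2 (GSMG0001322, -0.71) and Lmo7 (GSMG0011888, -0.65), whose own changes were -0.25, 0.18, 0.07 and 0.29 with none called. The calls of the entries within Ptbp2, Ncoa2 and Lmo7 were lost without replicate 1 (adjusted p = 0.149, 0.157 and 0.266). Some lower entries coincide with processed pseudogenes, among them Rps2-ps6 and Rpl3-ps2, which resemble ribosomal protein genes. GSMG0043387, on Rps2-ps6 (chromosome 14, 76236643 to 76236919), had 97.1, 7.50 and 99.7 FPKM in bicuculline nuclei, against 152, 13.0 and 128 FPKM in unstimulated nuclei (-0.59, SE 0.09, adjusted p = 0.0127). Library 2 was far lower than the others in both groups, as it was in the cytosol, at 10.1 FPKM with bicuculline and 9.75 FPKM without. In the other direction, GSMG0007926 (chromosome 12, 29843960 to 29845875), within an intron of the neuronal transcription factor gene Myt1l, had 2.28, 3.53 and 2.94 FPKM, against 0.680, 0.938 and 1.10 FPKM (1.28, SE 0.13, adjusted p = 0.00104), with Myt1l at 0.36 (adjusted p = 0.0803). The strand of these entries is not given, so the host gene is named by position only.

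In the share matched to GENCODE genes, the higher entries lay near all tested entries and the lower ones well below. Of the 19 higher entries 16 matched a GENCODE gene (84.2%, against 80.5% of all tested), and all 16 were protein-coding (97.2% of all matched were), with a median gene span of 56203.5 bp, against 27204.5 bp over all matched entries. Of the 28 lower entries 6 matched (21.4%), 4 of them protein-coding, too few for a comparison of length. Over all matched entries, the median log2 change was -0.05 in the shortest of 5 bins of gene span and 0.03 in the longest. By exonic length, also in 5 bins, the medians were -0.07 in the shortest and 0.02 in the longest. In pairs 1, 2 and 3 they were -0.02, -0.10 and -0.07 in the shortest and -0.02, 0.09 and 0.01 in the longest. Pair 1 thus had nearly the same median in both. GENCODE genes on the opposite strand overlapped 7 of the 19 higher entries (36.8%), close to the 35.2% of all tested, among them Reln, Hapln1, Sv2c, Fbxw7 and Coro1a.

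The second comparison asked whether the response in the nucleus differed from that in the cytosol. It did for 53 of 14091 entries (0.376%), of which 8 had a larger (0.0568%) and 45 a smaller log2 change in the nucleus (0.319%), against 607 larger (4.31%) and 2270 smaller (16.1%) at an unadjusted p under 0.05 and a median difference of -0.11. Reln, Hapln1, Ndnf and Sv2c were called higher in the nucleus, with cytosolic log2 changes of -0.10 to -0.07. A set of other genes that includes Gigyf1 and Sart3 was higher in the cytosol, most with negative log2 changes in the nucleus. Unstimulated, Reln averaged 35.6 FPKM in cytosol and 14.5 FPKM in nuclei, and Hapln1, Ndnf and Sv2c were also higher in cytosol. Median unstimulated levels in cytosol and nucleus were 11.5 and 7.64 FPKM for the 19 entries called higher in the nucleus. They were 1.56 and 6.32 FPKM for the 28 called lower, and 6.54 and 7.54 FPKM for all tested. The part of these levels in the nuclear changes was not tested. All 53 calls were lost without replicate 1 or without replicate 3, where 0 entries passed, and without replicate 2 there were 102 larger and 927 smaller. Without pairing there were 1 larger and 7 smaller. Scaling by median ratios gave 132 larger and 62 smaller.

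Reln had 32.2, 35.8 and 33.0 FPKM in bicuculline cytosol and 33.2, 37.2 and 36.6 FPKM in unstimulated cytosol, a log2 change of -0.08 that contrasts with 0.68 in the nucleus. The difference was 0.76 (SE 0.09, limma interaction, adjusted p = 0.0114). Hapln1 had 44.8, 36.6 and 41.5 FPKM in bicuculline cytosol, against 42.5, 39.9 and 49.0 FPKM (difference 0.73, SE 0.11, adjusted p = 0.0143). Ndnf differed by 0.86 (SE 0.17, adjusted p = 0.0484) and Sv2c by 0.59 (SE 0.11, adjusted p = 0.0484), with cytosolic changes of -0.07 and -0.09. For all 4 the cytosolic groups overlapped, and none was called there. Of the 8 larger entries 5 were called higher in the nucleus (0.137% of all entries were) and 3 were called lower in the cytosol (0.447% were). The choice of entries by their difference favours such calls.

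Fos, Fosb and Arc rose in both fractions. Fos had 6.42, 4.596 and 6.69 FPKM in bicuculline cytosol, against 3.79, 2.87 and 3.87 FPKM in unstimulated cytosol (0.67, adjusted p = 0.00389), and its difference between fractions was 0.07 (SE 0.11, adjusted p = 0.758). The cytosolic log2 changes of Fosb and Arc were 0.90 (adjusted p = 0.00389) and 0.64 (adjusted p = 0.0117), with differences of 0.28 (SE 0.16, adjusted p = 0.334) and 0.06 (SE 0.14, adjusted p = 0.847). Npas4 was called higher in the cytosol only, with 2.43, 1.31 and 2.31 FPKM in bicuculline cytosol, against 1.07, 0.605 and 1.01 FPKM in unstimulated cytosol. Its cytosolic groups did not overlap (0.84, adjusted p = 0.00389), and the nuclear minus the cytosolic log2 change was -0.73 (SE 0.14, adjusted p = 0.0433). Of the early genes 11 of 16 tested were called higher in the cytosol, against 3 of 16 in the nucleus, where 9.39% and 0.137% of all entries were called higher.

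**Figure D5:**
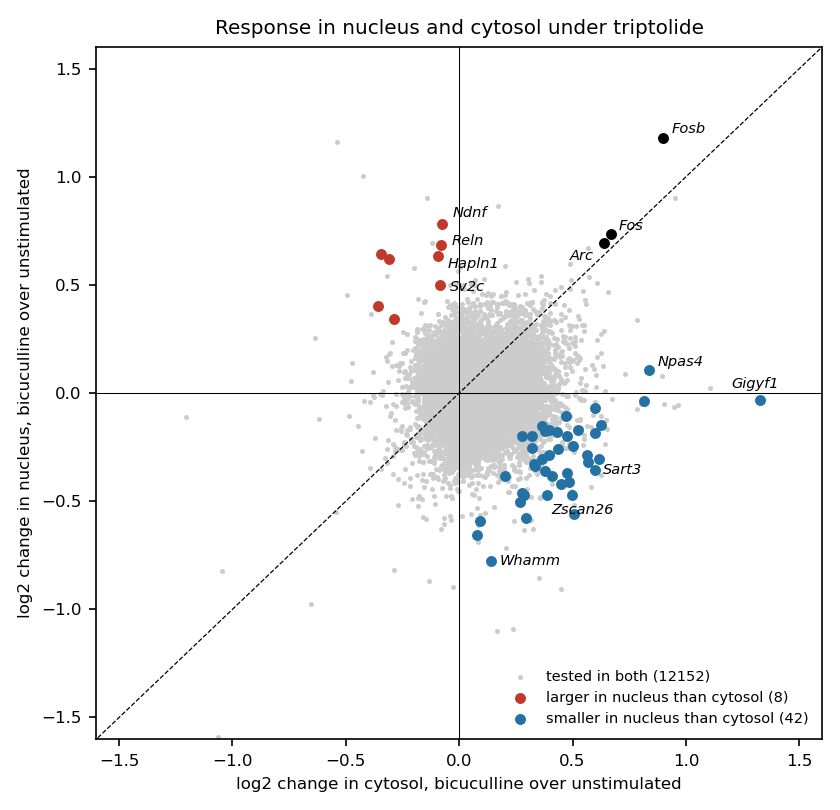
Log2 change, bicuculline over unstimulated, in the nucleus (vertical) against that in the cytosol (horizontal) for the 12152 entries tested in both, of which 2 lie outside the axes. Coloured points are 50 of the 53 entries whose response differed, red where larger and blue where smaller in the nucleus. Fos, Fosb and Arc (black) lie near the dashed line of equal change, and Reln, Hapln1, Ndnf and Sv2c near 0 on the cytosolic axis.

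Of the 45 entries with a smaller nuclear response 33 had a symbol, and 34 were called higher in the cytosol (9.39% of all entries were). In the nucleus 5 were called lower (0.202% of all entries were), and 43 of the 44 tested there had a negative change. Medians of this set were -0.31 in the nucleus and 0.41 in the cytosol. The choice of entries implies such medians and favours such calls. Gigyf1 (chromosome 5, 137518870 to 137527934), a partner of the translational repressor 4EHP, had 2.80, 2.52 and 2.46 FPKM in bicuculline cytosol, against 0.682, 0.637 and 0.891 FPKM in unstimulated cytosol. In the nucleus it had 7.51, 11.9 and 7.49 FPKM, against 9.04, 9.13 and 8.80 FPKM, with replicate 2 again apart, and the difference was -1.36 (SE 0.17, adjusted p = 0.0114). Sart3, a recycling factor of spliceosomal U4/U6, had 6.58, 7.28 and 5.37 FPKM in bicuculline nuclei, against 8.97, 8.02 and 7.86 FPKM, and 4.39, 3.72 and 4.06 FPKM in bicuculline cytosol, against 2.55, 2.61 and 2.36 FPKM. Neither fraction's groups overlapped (difference -0.95, SE 0.13, adjusted p = 0.0114). By itself the cytosolic rise of Sart3 was called (0.60, limma adjusted p = 0.0100) and its nuclear fall was not (-0.35, adjusted p = 0.119).

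Zscan26, a zinc finger protein gene, had opposite signs too, at -0.47 in the nucleus (limma adjusted p = 0.0632) and 0.50 in the cytosol (adjusted p = 0.0117). The difference was -0.97 (SE 0.13, adjusted p = 0.0114). Lmbr1l, a membrane receptor gene, had -0.30 (adjusted p = 0.24) and 0.62 (adjusted p = 0.0100), a difference of -0.92 (SE 0.15, adjusted p = 0.0214). Neither nuclear fall was called. Whamm fell in the nucleus and stood at 0.14 in the cytosol (adjusted p = 0.27), with 2.38, 2.29 and 2.63 FPKM, against 2.28, 1.91 and 2.32 FPKM (difference -0.91, SE 0.14, adjusted p = 0.0156). Others named after their values were seen include the microRNA silencing genes Tnrc6a (-0.79) and Tnrc6c (-0.67), the Mediator genes Med23 (-0.85) and Med13l (-0.61), the DNA dioxygenase gene Tet2 (-0.77) and the kinase genes Map3k12 (-0.69), Map4k3 (-0.52) and Map2k5 (-0.47). Clk1 and Clk4 had cytosolic rises of 0.46 (adjusted p = 0.0269) and 0.45 (adjusted p = 0.0149), with differences of -0.68 (adjusted p = 0.149) and -0.69 (adjusted p = 0.0773) that did not pass the test.

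The third comparison set the nuclear response against that of whole cells. It differed for 1 of 14108 entries (0.00709%), which was larger in the nucleus, with 0 smaller, and for 117 larger (0.829%) and 313 smaller (2.22%) at an unadjusted p under 0.05. The entry, GSMG0070553 (chromosome 10, 52214021 to 52214063), spans 43 bp and was listed at 0 in all unstimulated nuclei and in all bicuculline whole-cell libraries, so no fold is given. Of the 19 entries higher in the nucleus 10 were called higher in whole cells (52.6% of the set, 18.9% of the whole-cell rises) and 7 in the cytosol (36.8% and 0.605%). Of the 28 lower entries 9 were called lower in whole cells (32.1% and 33.3% of the whole-cell falls) and 1 in the cytosol (3.57% and 1.82%), where 0.447% of all entries were called lower. Only 21 of these 28 were tested in whole cells and 15 in the cytosol, against 19 and 18 of the 19 higher entries. Entries not tested in a fraction count as not called there. Among all 13081 entries tested in whole cells 0.405% were called higher and 0.206% lower. Rtn4r (0.36, adjusted p = 0.0427) and Fbxw7 (0.48, adjusted p = 0.00892) rose in whole cells too, and Rock1 fell (-0.46, adjusted p = 0.0479). For Reln and Hapln1 the whole-cell changes were 0.15 (adjusted p = 0.238) and 0.12 (adjusted p = 0.288).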

How the data were processed

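The deposited table gives FPKM values computed by the authors, 1 per FASTDB gene model and library, on mm10. The submitters' processing notes name STAR 2.4.0, FastQC, Picard and SAMtools. Per the labels' protocols, libraries came from 200 ng total RNA with a TruSeq Stranded mRNA kit. How reads were counted, with which strand setting and with what rule for multiple hits is not given in the sources used here. FPKM are shares of a library, so a change in abundant RNAs shifts all others. Values were used as log2(FPKM + 0.5). Entries with at least 1 FPKM in 3 of the compared libraries were tested with limma 3.58.1 in R 4.3.3 (trend and robust moderation, replicate number as a block), and adjusted p under 0.05 was called. Differences between fractions were interaction contrasts over 12 libraries with blocks of replicate within fraction. Libraries were paired by the sample number that their column names share. Deviations from group means correlated within these pairs at r = 0.560, 0.318 and 0.438 in the nucleus, and were positive in the other fractions too. Depth was estimated from steps between low values. GENCODE M21 gave annotation. The code was tested on simulated data. Alternatives were scaling, filter, pseudocount, moderation, block, and leaving out each replicate. Members and gene lists were chosen with earlier results of these data known. Named genes are called genes, 12 each way by size of change at most, with at least 2 FPKM on average, an established symbol and 3 pairs of the same direction, up to 4 called members of each list (with none called, the largest change), 10 fixed genes, and up to 4 genes each way in each difference. Some called genes are not reported here by name. Summaries and figures used matplotlib 3.10.9, numpy 2.4.6 and pandas 2.3.3 under Python 3.11.15.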

Additional observations from a re-analysis of the deposited data

Results flagged for a closer look

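The bicuculline response differed between nucleus and cytosol, by the limma interaction contrast on the log2 scale, for 10 genes named here. It was larger in the nucleus for Ndnf (0.86, adjusted p = 0.0484), Reln (0.76, adjusted p = 0.0114), Hapln1 (0.73, adjusted p = 0.0143) and Sv2c (0.59, adjusted p = 0.0484). It was smaller in the nucleus for Npas4 (-0.73, adjusted p = 0.0433), Whamm (-0.91, adjusted p = 0.0156), Lmbr1l (-0.92, adjusted p = 0.0214), Sart3 (-0.95, adjusted p = 0.0114), Zscan26 (-0.97, adjusted p = 0.0114) and Gigyf1 (-1.36, adjusted p = 0.0114). None passed without replicate 1 or without replicate 3, where 0 of all entries were called, and all 10 passed without replicate 2.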

How the results depend on the processing

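Counts are given as total, higher and lower calls, with 47, 19 and 28 in the nucleus as reported. The fit with no replicate block gave 1, 0 and 1 there, 4, 4 and 0 in the cytosol (1212, 1157 and 55 with pairs as blocks), 2, 0 and 2 in whole cells (80, 53 and 27), 8, 1 and 7 for the difference between nucleus and cytosol (53, 8 and 45) and the same 1 call for that between nucleus and whole cells. Median-ratio scaling gave 637, 385 and 252 in the nucleus, 576, 302 and 274 in the cytosol, 21, 13 and 8 in whole cells and 194, 132 and 62 for nucleus against cytosol. In the nucleus, testing all entries with no filter gave 0, 0 and 0 by limma (1238 higher and 1618 lower at an unadjusted p under 0.05), quantile normalization 68, 30 and 38, rescaling without mitochondrially encoded RNAs 31, 9 and 22, plain moderation with no trend or robust step 12, 5 and 7, all 18 triptolide libraries 829, 469 and 360, and leaving out entries under 200 bp, chosen after seeing the data, 191, 99 and 92. The cause of these shifts was not tested. Leaving out 1 replicate gave 26 to 990 calls in the nucleus (11 to 315 higher, 15 to 675 lower), 334 to 1194 in the cytosol (316 to 1150 higher, 18 to 96 lower), 18 to 818 in whole cells (8 to 457 higher, 10 to 361 lower), 0 to 1029 for nucleus against cytosol (0 to 102 larger, 0 to 927 smaller) and 0 to 2 for nucleus against whole cells (0 to 1 larger, 0 to 2 smaller). The larger nuclear responses than cytosolic ones numbered 5 with a pseudocount of 1 FPKM and 4 after rescaling without mitochondrially encoded RNAs. Each of the 47 nuclear calls kept its direction in every fit that tested it, and without replicates 1, 2 and 3 in turn 15, 47 and 46 of them remained called. Median-ratio scaling put the median of all nuclear entries at 0.02, against -0.02 as reported, and with it Meg3 (0.0153) and Gigyf1 (0.00577), both near 0, changed sign as well. Their direction also turned with 1 replicate left out, where Meg3 ranged from -0.35 to 0.16 and Gigyf1 from -0.24 to 0.0762. Of these values, 1 was called, Meg3 without replicate 2. Over the named genes' nuclear changes, 503 of the values under an alternative kept direction and side of the threshold, 64 passed it newly, 61 no longer passed and 6 turned. Fits without a replicate rest on 2 pairs. Entries of under 200 bp rest on few fragments even at 1 FPKM.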
